A study of Ditylenchus destructor and Heterodera glycines and Meloidogyne incognita with 162 samples.

Results

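In the genome of the potato tuber nematode Ditylenchus destructor, 1229 pairs of neighbouring genes lay head-to-head at a short distance, and these pairs held 2458 of the 15798 genes in the count table (15.6%). Genes were sorted by chromosome and start, and a pair was kept where the left gene was on the minus strand, the right gene was on the plus strand, and the right start minus the left end was between 1 and 1000. A distance of 1 means that no base lies between the annotated genes. The files name genes only by an ID, and 0 of these IDs matched the reference gene table, so no function can be given for a member. Expression was measured in single embryos of strain Dd1115, grown on sweet potato tubers, with eggs purified on sucrose and no treatment. Smart-seq2 copies the polyadenylated RNA of 1 embryo into full-length cDNA and keeps no record of strand. There were 4 libraries at Zygote and 5 at each of the other 10 stages. These were 2-cell, 4-cell and 8-cell during early cleavage, the later 24-44 cell and 64-78 cell stages, then Comma and the elongating 1.5-fold and 2-fold embryos, and finally Moving embryos and L1, the first larval stage. Each library is a whole embryo, so fewer cells of a type and less RNA per cell cannot be told apart.

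Genes that are transcribed away from each other from a short shared stretch of DNA are called divergent or head-to-head. Such a stretch can act as a bidirectional promoter, in which nucleosome-free DNA is open to the transcription machinery in both directions, or it can hold separate promoters for each gene. Neighbouring genes on the same strand can instead form an operon in nematodes, in which a single long transcript is cut and joined to spliced leaders, and genes in a tail-to-tail arrangement share only the DNA where their transcripts end.

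Short head-to-head distances were less common than short distances in other orientations. Of 3969 head-to-head neighbours, 31% were 1 to 1000 bp apart, against 41.7% of 7833 same-strand neighbours and 52.7% of 3974 tail-to-tail neighbours. A further 374 head-to-head neighbours overlapped, and 1794 lay more than 1000 and up to 5000 bp apart, which serve as the longer head-to-head pairs in the comparisons below. Among the 1229 pairs the quartiles of the distance were 250, 454 and 712 bp, with medians of 406 bp for same-strand and 376 bp for tail-to-tail neighbours within the same limit. Distances of up to 100 bp held 104 pairs, those over 100 and up to 250 bp held 205, those over 250 and up to 500 bp held 369 and those over 500 bp held 551.

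**Figure D1:**
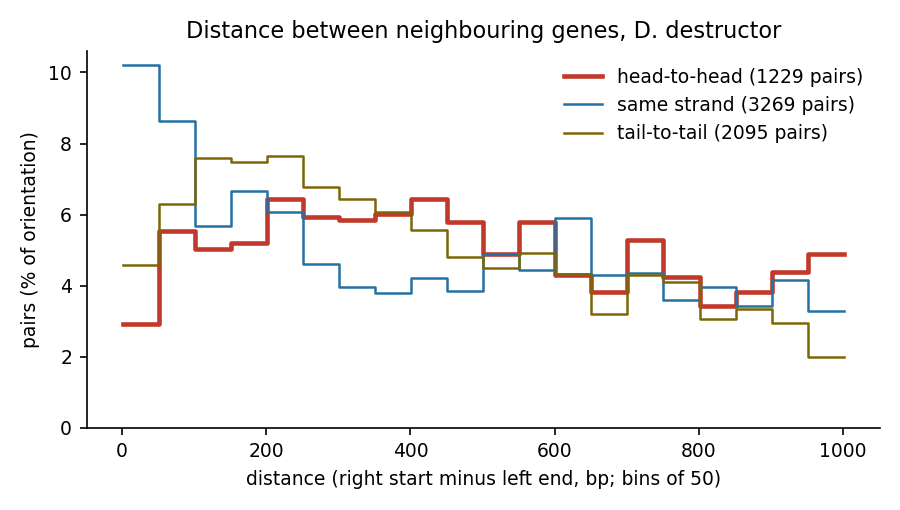
Distance between neighbouring genes of D. destructor in bins of 50 bp (x axis, bp) as a percent of the pairs of each orientation within 1 to 1000 bp (y axis), with 1 line for each of head-to-head, same-strand and tail-to-tail neighbours. The head-to-head line is lowest in the shortest bin, where the same-strand line is highest, and its median of 454 bp is the longest of the 3 orientations.

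The pairs were spread over all 4 chromosomes. Chromosome 4 held 475 pairs (17.5% of its genes), chromosome 1 held 227 (14.5%), chromosome 2 held 282 (14.8%) and chromosome 3 held 242 (14.2%), and 3 pairs lay on short scaffolds. The median genomic span of a member, introns included, was 3226 bp, against 3470 bp for all other genes. On its outer side, 528 members (21.5%) had a same-strand neighbour within 1000 bp and 710 (28.9%) had a neighbour on the opposite strand within 1000 bp. A pair was flanked by close same-strand neighbours on both sides in 69 cases (5.61%). The outer neighbour overlapped the member in 111 cases (4.52%), and counts at such genes are uncertain because reads carry no strand.

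At the short limit, Dd_00679 and Dd_00680 on chromosome 1 (4345269 to 4351663 and 4351664 to 4352607) and Dd_13275 and Dd_13276 on chromosome 4 (19469651 to 19479356 and 19479357 to 19482015) had no base between them. The genome build is not named in the sources used here, and coordinates are those of the count table. The first pair was uneven, with highest stage means of 1402 CPM for Dd_00679 at L1 and 15.6 CPM for Dd_00680 at Comma, where CPM is the count divided by the library's total and multiplied by 1000000. In the second pair both genes were abundant early, at 464 CPM for Dd_13275 at 2-cell and 1345 CPM for Dd_13276 at 4-cell. This second pair includes a gene that overlaps another gene, so its counts are uncertain. At the long limit stood Dd_01687 and Dd_01688 at 999 bp, with highest stage means of 30 and 20.1 CPM. Dd_12569 and Dd_12570 stood at 1000 bp, with 35.5 and 55.3 CPM, and this pair also includes a gene that overlaps another. Just outside the rule were Dd_07405 and Dd_07406, which overlapped by 5 bp, Dd_03336 and Dd_03337, which overlapped by 3 bp, Dd_11845 and Dd_11846 at 1002 bp and Dd_00259 and Dd_00260 at 1003 bp. Their highest stage means were 226 and 84.9 CPM, 98.7 and 243 CPM, 111 and 3.86 CPM, and 4.81 and 275 CPM, within each pair left gene first.

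Of the 2458 members, 5 had 0 counts in every library, of 20 such genes in the whole table. They fell in 4 pairs, of which 3 stood near the end of chromosome 4 at the same distance of 230 bp: Dd_15443 with Dd_15444, Dd_15462 with Dd_15463, and Dd_15464 with Dd_15465. Dd_15443 spanned 34401134 to 34407435 and Dd_15463 spanned 34515282 to 34521583, so the first and the second of these pairs have the same gene spans in mirror order. Reads from near-identical copies may be lost or shared in counting, so their values are uncertain. The fourth pair was Dd_10370 with Dd_10371, on a scaffold.

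The libraries held 300110 to 10641389 counts, with a median of 5260363.5, and the members took 17.1 to 27.6% of the counts of a library (median 23.5%). Precision follows depth, but libraries of 1 stage also differed far beyond counting error. The lowest chi-square between replicates of a stage was 10.1 per degree of freedom, so no library was a copy of another of its stage. Libraries of different stages were not compared in this way. In 7 libraries over 80% of all genes reached 1 CPM: Moving replicates 1 to 4, 2-fold replicates 3 and 4, and Comma replicate 5. Moving replicate 5 stood apart in the other direction. It had 1407 members at 1 CPM or more, while the other 4 Moving libraries had between 2053 and 2192. The main detection shares, stages of highest mean and medians below are also given without the 7 libraries. This leaves Moving replicate 5 as the single Moving library.

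Genes of head-to-head pairs were detected more often than other genes at every stage. At a stage mean of 1 CPM or more, 1591 members (64.7%) were detected at Zygote against 57.6% of other genes, 1864 (75.8%) at 24-44 cell against 71.1%, 2281 (92.8%) at Moving against 91.3%, and 2115 (86%) at L1 against 82.9%. Detection at all 11 stages was found for 1390 members (56.6%) and for 47.7% of other genes. Both genes of a pair reached that level at every stage in 498 pairs (40.5%), against 38% of same-strand, 35.9% of tail-to-tail and 26% of longer head-to-head neighbours. Without the 7 libraries, 41.6% of members and 31.9% of other genes were detected at every stage, and both genes of a pair in 22.8% of head-to-head, 18.1% of same-strand, 18.4% of tail-to-tail and 12.3% of longer head-to-head neighbours. These shares are descriptions with no test, since genes are not replicates.

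At Zygote both genes were detected in 607 pairs, 1 gene in 377 and neither in 245. At Moving the same counts were 1073, 135 and 21, and in Moving replicate 5 alone both genes were detected in 453 pairs and neither in 275. In that library 57.2% of members and 49.7% of other genes were detected. A pair with 1 gene at 10 CPM or more in some stage and a partner below 1 CPM at every stage was found in 29 cases (2.36%), against 1.9% of same-strand, 1.58% of tail-to-tail and 4.74% of longer head-to-head neighbours. Per kb of genomic span, the median ratio of the higher to the lower gene was 3.13-fold over the 842 pairs in which both genes had a stage mean of at least 10 CPM, and 163 of these pairs (19.4%) differed by at least 10-fold. The median was 3-fold in same-strand, 2.92-fold in tail-to-tail and 3.06-fold in longer head-to-head pairs, and 16.4%, 16.6% and 19.1% of these differed by at least 10-fold.

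The stage of highest mean also differed between members and other genes that reached 10 CPM. Of such members, 30.6% were highest at Zygote to 8-cell and 20.7% at 24-44 cell or 64-78 cell, against 25.2% and 13.9% of other genes. At Zygote itself the shares were nearly equal, at 8.87% of members and 8.9% of other genes. They were 8.12% and 6.78% at 2-cell, 8.82% and 6.17% at 4-cell, and 4.76% and 3.34% at 8-cell. The later stages, Comma to L1, held the maximum of 48.8% of members and of 61% of other genes. The largest gap at a later stage was at Moving, which held 12.8% of the members' maxima and 18.7% of those of other genes. Without the 7 libraries these shares at Moving were 20.5% and 23.2%. The largest gap at a later stage was then at L1, with 7.89% of members and 12.2% of other genes. In the same libraries the maximum fell at Zygote to 8-cell for 28.7% of members and 24.7% of other genes. It fell at 24-44 cell or 64-78 cell for 19.1% and 13%, and at Comma to L1 for 52.1% and 62.3%. Both genes of a pair were highest at 24-44 cell or 64-78 cell in 64 of 842 pairs (7.6%), against 5.22% of same-strand, 1.58% of tail-to-tail and 3.35% of longer head-to-head neighbours. An early maximum of 1 gene and a late maximum of its partner was found in 187 pairs (22.2%). The share was 21.6% in same-strand, 25.3% in tail-to-tail and 27.3% in longer head-to-head pairs.

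**Figure D2:**
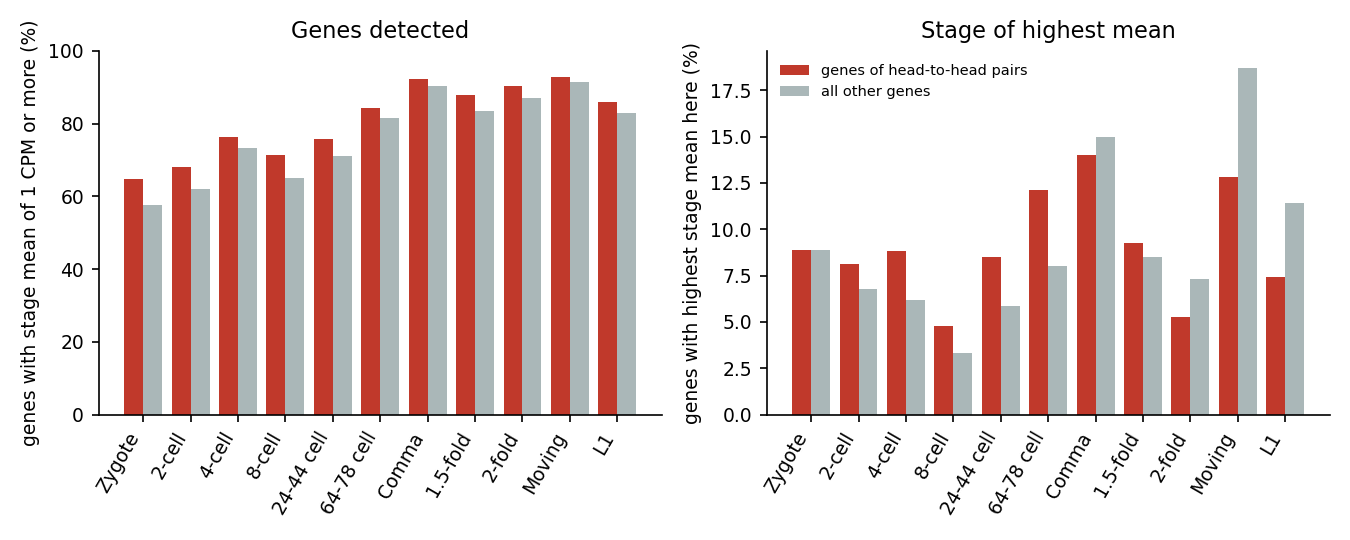
Percent of genes with a stage mean of 1 CPM or more (left panel) and percent of genes with their highest stage mean at a stage (right panel, genes reaching 10 CPM) over the 11 stages on the x axes, with dark bars for genes of head-to-head pairs and pale bars for all other genes. The dark bars are higher at every stage on the left, and on the right they are higher at 24-44 cell and 64-78 cell and lower at 2-fold, Moving and L1.

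The genes of a head-to-head pair tended to change together over the stages, but loosely. The Pearson r of the 11 stage means of log2(CPM + 1) had quartiles of -0.0978, 0.394 and 0.688 over the 842 pairs that reached 10 CPM. The median was 0.42 for 2260 same-strand pairs, 0.242 for 1582 tail-to-tail pairs and 0.297 for 1075 longer head-to-head pairs. An r of 0.8 or more was found in 125 head-to-head pairs (14.8%), against 16.1%, 8.53% and 10.9% in the same 3 classes. A negative r was found in 239 pairs (28.4%), against 26.5%, 37.5% and 34.7% in these classes. Of the 239 pairs, 79 were at -0.5 or below (9.38% of all 842), against 7.57%, 14.2% and 12.7%. These values are descriptions with no p, and all points share their libraries and stages. Without the 7 libraries with over 80% of genes detected the median r was 0.338 in head-to-head, 0.37 in same-strand, 0.164 in tail-to-tail and 0.176 in longer head-to-head pairs. The head-to-head median was 0.392 in 756 pairs in which neither gene overlapped another.

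Unlike same-strand neighbours, the head-to-head pairs did not show their highest r at the shortest distances. Their median r was 0.262 in 67 pairs up to 100 bp apart, 0.424 in 138 pairs over 100 and up to 250 bp, 0.453 in 257 pairs over 250 and up to 500 bp and 0.343 in 380 pairs over 500 bp. Same-strand neighbours had 0.614, 0.505, 0.371 and 0.331 in the same bins. Without the 7 libraries the order of the head-to-head bins changed, with 0.386, 0.293, 0.427 and 0.278, while same-strand neighbours had 0.536, 0.474, 0.32 and 0.271. In head-to-head pairs whose weaker gene reached at least 100 CPM the median was 0.454, against 0.409 in same-strand, 0.0478 in tail-to-tail and 0.158 in longer head-to-head pairs. Where the weaker gene reached 30 to 100 CPM it was 0.322, against 0.378, 0.276 and 0.291 in the same classes, and at 10 to 30 CPM it was 0.405, against 0.461, 0.346 and 0.35. Without the 7 libraries the head-to-head medians from the lowest to the highest level were 0.386, 0.261 and 0.341, against 0.434, 0.35 and 0.299 in same-strand pairs and 0.279, 0.154 and 0.0285 in tail-to-tail pairs. By chromosome the head-to-head median lay between 0.367 and 0.433.

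Within a stage, the paired genes varied together only weakly from embryo to embryo. The r of their deviations from the stage means, over 54 libraries, had a median of 0.122, against 0.144 in same-strand, 0.0988 in tail-to-tail and 0.0954 in longer head-to-head pairs. It was 0.0857 when every library was thinned to the smallest total, where the same-strand, tail-to-tail and longer head-to-head medians were 0.123, 0.0804 and 0.0859. An r of deviations of 0.5 or more was found in 38 head-to-head pairs (4.51%), against 8.94% of same-strand, 2.09% of tail-to-tail and 2.23% of longer head-to-head pairs. The maximum fell at the same stage for both genes in 151 pairs (17.9%), against 20.3%, 13.5% and 17.3% in the other classes. It fell within 1 stage in 38.4%, against 40.4%, 31.2% and 37.1%.

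**Figure D3:**
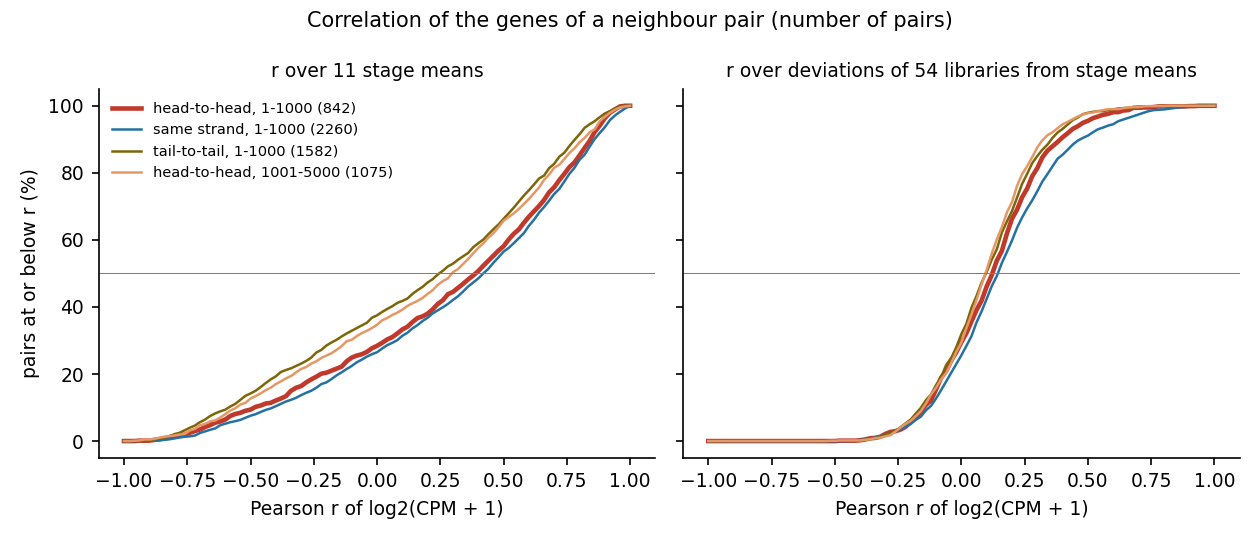
Cumulative percent of neighbour pairs (y axis) at or below a Pearson r of log2(CPM + 1) (x axis), over the 11 stage means (left panel) and over the deviations of the 54 libraries from their stage means (right panel), with 1 line for each class of neighbours. On the left the head-to-head line runs close to that of same-strand pairs and to the right of the others, and on the right all lines cross 50% near 0.1.

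The pair with the highest r of stage means was Dd_04370 and Dd_04371 on chromosome 2, 418 bp apart, at 0.975. Dd_04370 had a mean of 1.29 ± 2.57 CPM at Zygote (SD, n = 4), 33.6 ± 27.4 CPM at 64-78 cell and 33.5 ± 17.2 CPM at 2-fold (SD, n = 5 each), and Dd_04371 had 0, 34.3 ± 25.5 and 41.3 ± 15.6 CPM at the same stages. In Dd_12313 and Dd_12314 on chromosome 4, 976 bp apart, r was 0.965, and both genes were highest at Comma, at 54.9 ± 73.9 and 10.2 ± 14.7 CPM. The SD exceeded the mean there, with single libraries between 0 and 184 CPM for Dd_12313.

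A pair of unequal length ran in parallel both between and within stages. Dd_04201 and Dd_04202 on chromosome 2, 187 bp apart, have spans of 1619 and 234 bp, an r of stage means of 0.959 and an r of deviations of 0.893. Both were highest at 2-fold, at 916 ± 752 and 153 ± 127 CPM (SD, n = 5 each), with single 2-fold libraries from 7.7 to 1991 CPM for Dd_04201 and from 0.624 to 345 CPM for Dd_04202. The 5 embryos at 2-fold thus differed widely for both genes. The highest r of deviations, 0.938, belonged to Dd_13492 and Dd_13493 on chromosome 4, 81 bp apart, with means over stages of 9.78 and 56.9 CPM and a maximum for both at L1 (22.2 ± 15.1 and 107 ± 74 CPM). After these pairs came Dd_05177 and Dd_05178 on chromosome 2, 134 bp apart, at 0.767, although their r of stage means was -0.469. Dd_05177 had 1185 ± 284 CPM at 8-cell and 175 ± 109 CPM at Moving, while Dd_05178 had 380 ± 100 and 319 ± 184 CPM. This pair includes a gene that overlaps another gene, so its counts are uncertain.

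At the other end were pairs whose genes ran in opposite directions. In Dd_12401 and Dd_12402 on chromosome 4, 207 bp apart, r was -0.953. Dd_12402 had 1217 ± 520 CPM at Zygote (SD, n = 4) and 18.8 ± 17.5 CPM at Moving (SD, n = 5), and Dd_12401 had 0 CPM at Zygote and 15.2 ± 6.37 CPM at Moving. Dd_00857 and Dd_00858 on chromosome 1 (311 bp apart, r of -0.889) peaked at Comma (16.9 ± 26 CPM) and at 2-cell (28.1 ± 15.7 CPM). Dd_03906 and Dd_03907 on chromosome 2 (638 bp apart, r of -0.885) peaked at Moving (54.4 ± 42.2 CPM) and at Zygote (171 ± 119 CPM). In all 3 pairs the right gene was highest at Zygote or 2-cell and the left gene at Comma or Moving.

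The most abundant pairs, ranked by the weaker gene's mean over stages, showed 3 different courses. In Dd_05554 and Dd_05555 on chromosome 2 (16214982 to 16218761 and 16218990 to 16221990) r was -0.836. Dd_05554 was highest at L1, at 2962 ± 1890 CPM, and Dd_05555 at 8-cell, at 976 ± 144 CPM (SD, n = 5 each). A single Moving library, replicate 5, had 6104 CPM of Dd_05554, against 222 to 470 CPM in the other 4. Dd_12972 and Dd_12973 on chromosome 4 (17094108 to 17102873 and 17103614 to 17109323) ran in parallel, with r of 0.948, and were highest at 2-fold, at 9788 ± 6630 and 4186 ± 2328 CPM. At L1 they had 14.4 ± 14.2 and 3.95 ± 5.17 CPM. Dd_13891 and Dd_13892 on chromosome 4 (23766636 to 23768774 and 23769055 to 23772593) were highest at 24-44 cell and 8-cell, at 2035 ± 293 and 1105 ± 276 CPM, and parted later: at L1 they had 7.75 ± 6.74 and 344 ± 85.6 CPM.

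**Figure D4:**
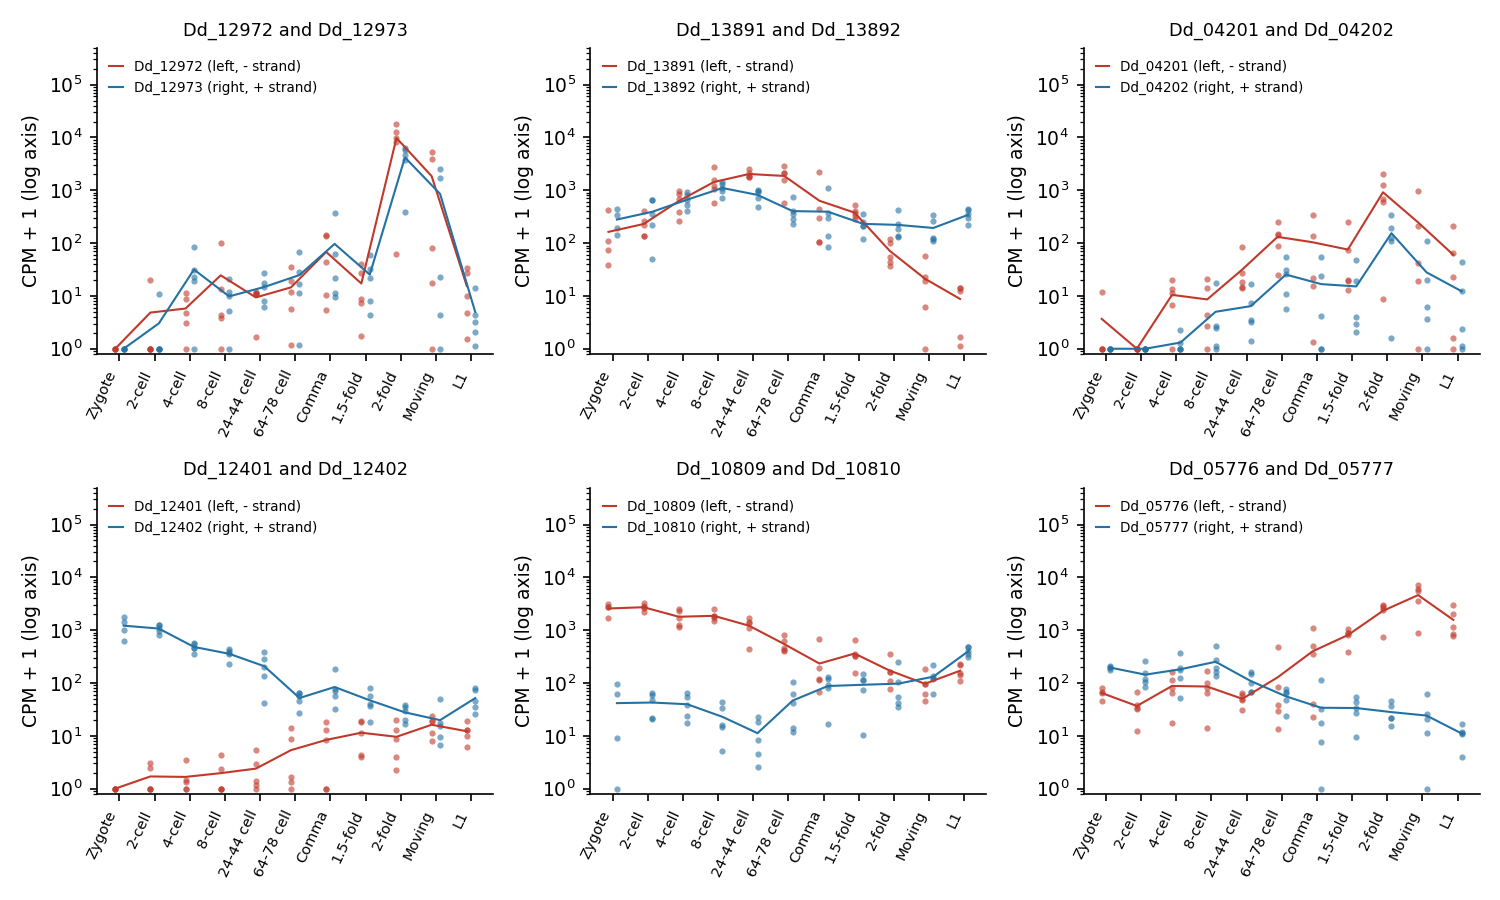
CPM + 1 on a log axis (y axis) in every library (points) with stage means (lines) over the 11 stages (x axis) for 6 head-to-head pairs, the left gene in red and the right gene in blue. Dd_12972 and Dd_12973 share a maximum at 2-fold, and Dd_04201 and Dd_04202 run in parallel. Dd_13891 and Dd_13892 part after 1.5-fold, and the 3 pairs of the lower panels run in opposite directions.

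Stages were compared with edgeR's quasi-likelihood test over all genes, with Benjamini-Hochberg adjusted p-values and a threshold of 0.05, and the members were then looked up. Fold changes are log2, later stage over earlier stage. The first comparison, 24-44 cell against Zygote, spans cleavage. Of 1581 members tested, 211 were higher in 24-44 cell embryos (13.3%), where 10.4% of all 8969 genes tested were, and 34 were lower (2.15%, against 2.63% of all genes tested). At an unadjusted p under 0.05 there were 473 members (29.9%), against 25.1% of all genes tested. The remaining 877 members did not pass the filter on low counts. The median log2 fold change of the members tested was 0.55, against 0.33 over all genes tested, and without the filter the medians were 0.87 and 0.90. Rises of both genes were found in 22 of the 616 head-to-head pairs with both genes tested (3.57%), where 2% of 3055 neighbour pairs of all orientations within 1000 bp had both higher. The share was 1.72% in same-strand, 1.41% in tail-to-tail and 0.493% in longer head-to-head pairs. DESeq2 called both genes higher in 54 of 876 head-to-head pairs (6.16%), against 3.71%, 3.54% and 3.1% in the same classes, and 1 fit over all libraries called 51 of 1129. Both genes were lower in 0 pairs (0.0655% of all neighbour pairs), and 1 pair moved in opposite directions (0.162%, against 0.295%). Where 1 gene was higher, the partner was also higher for 44 of 172 genes (25.6%), while 14% of the genes in these pairs were higher. The partner was also higher for 19.2% of such genes in same-strand, 14.3% in tail-to-tail and 5.94% in longer head-to-head pairs. In these classes 8.94%, 9.86% and 8.31% of the genes were higher.

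In 4 of these pairs neither gene had a count in any Zygote library. Their genes passed the filter on low counts only through the 24-44 cell libraries, so they could only be called higher. Of these pairs 3 are described here. The other was Dd_04880 with Dd_04881, which is named after its values were seen. Dd_02937 had 30.4, 154, 23.4, 53.9 and 90 CPM in 24-44 cell embryos and Dd_02938 had 2.24, 40, 34.2, 1.08 and 13.6 CPM, against 0 in the 4 Zygote libraries. These genes lie on chromosome 1 (18674591 to 18676576 and 18677020 to 18678099). Against a floor of 3 counts over the Zygote libraries, they were at least 400-fold and at least 107-fold higher (adjusted p = 0.00244 and 0.0255). All 5 later libraries lay above all 4 earlier ones for both genes.

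Dd_02712 had 44, 45.1, 24.5, 16 and 0 CPM in 24-44 cell embryos and Dd_02713 had 30, 28.7, 16.8, 8.76 and 7.44 CPM, again against 0 in every Zygote library. They were at least 152-fold and at least 108-fold higher (adjusted p = 0.0296 and 0.0142). The stages overlapped for Dd_02712, through the 24-44 cell library at 0, and did not overlap for Dd_02713. Dd_12972 had 9.96, 11, 10.5, 9.71 and 0.702 CPM and Dd_12973 had 13.7, 26.4, 5.19, 16.6 and 7.02 CPM, against 0 at Zygote. They were at least 50.4-fold and at least 79.6-fold higher (adjusted p = 0.0253 and 0.0174). No library of 1 stage overlapped the other for either gene of this pair.

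The pair that moved in opposite directions was Dd_11851 and Dd_11852 on chromosome 4, 243 bp apart (9439868 to 9441959 and 9442202 to 9444732). Dd_11851 had 228, 183, 157, 290 and 348 CPM in 24-44 cell embryos, against 33.6, 45.6, 20 and 12.4 CPM at Zygote. Its log2 fold change was 3.29 (SE 0.51, adjusted p = 0.00293). Dd_11852 had 133, 38.9, 124, 144 and 106 CPM, against 297, 358, 476 and 269 CPM at Zygote, and its log2 fold change was -1.49 (SE 0.42, adjusted p = 0.0366). Neither gene overlapped between the stages.

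A call of 1 gene and not of its partner does not show that they moved differently, so the log2 ratio of right to left gene was tested with limma in pairs with both genes at a mean of at least 10 CPM. The ratio differed in 90 of 504 head-to-head pairs (17.9%), where it differed in 14.6% of 2267 neighbour pairs of all orientations. The largest changes were in Dd_07656 with Dd_07657 on chromosome 3 and Dd_11909 with Dd_11910 on chromosome 4. Dd_07657 had 192, 236, 240, 275 and 360 CPM in 24-44 cell embryos, against 20 CPM in Zygote replicate 1 and 0 in the other 3, while Dd_07656 had 2.38, 44.6, 21.4, 21.4 and 25.5 CPM, against 105, 27.4, 8.77 and 74.7 CPM. Their log2 ratio changed by 7.98 (SE 1.08, adjusted p = 0.00069, limma). Dd_11910 had 82.9, 407, 160, 41.5 and 199 CPM, against 0 at Zygote, and was at least 1019-fold higher (adjusted p = 0.00099, edgeR), while Dd_11909 had 265, 572, 703, 319 and 663 CPM, against 997, 909, 612 and 122 CPM. Their log2 ratio changed by 7.21 (SE 0.77, adjusted p = 0.000159, limma). Without a count at Zygote, Dd_11910 could only be called higher. Where a gene is at 0, the size of a ratio change depends on the 1 CPM added to each value before the log. In each case the right gene was almost absent at Zygote beside a left neighbour that was present, and the left gene overlapped between the stages.

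These counts rested on few libraries. Leaving out 24-44 cell replicates 1 to 5 in turn left 13, 9, 6, 10 and 12 pairs with both genes called the same way. Leaving out Zygote replicates 1 to 4 left 12, 14, 9 and 20. Without 24-44 cell replicate 3 both genes were higher in 1.05% of head-to-head pairs. The share was 0.643% in same-strand, 0.485% in tail-to-tail and 0.183% in longer head-to-head pairs. Without Zygote replicate 4 these 4 shares were 3.04%, 0.957%, 0.929% and 0.432%. The number of members called was 151, 132 and 161 without 24-44 cell replicates 2, 3 and 5 and 156 without Zygote replicate 3. Shares over all genes in these fits are not given here, so whether members lost more calls than other genes cannot be told. The ratio differed in 55 pairs without 24-44 cell replicate 3. Among the genes named, the adjusted p passed 0.05 for Dd_02712 without Zygote replicates 1, 2 and 3 (0.0517 to 0.0591), for Dd_02938 without Zygote replicates 1 and 3 (0.0524 and 0.0504), for Dd_12972 without each Zygote replicate (0.0513 to 0.0638), for Dd_07657 without 24-44 cell replicates 2 to 5 (0.0556 to 0.0659), and for Dd_11852 without 24-44 cell replicates 3 and 5 and Zygote replicates 1, 2 and 3 (0.0665 to 0.104). Their directions held in these fits.

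Moving against 24-44 cell spans gastrulation and the elongation of the embryo. Of 1864 members tested, 145 were higher in Moving embryos (7.78%), where 12.1% of all 11362 genes tested were, and 244 were lower (13.1%), where 8.4% of all genes tested were. At an unadjusted p under 0.05 there were 660 members (35.4%), against 34.9% of all genes tested. The remaining 594 members did not pass the filter on low counts. The median log2 fold change of the members tested was -0.23, against 0.44 over all genes tested, a difference of -0.662. With RLE scaling the medians were 0.01 and 0.67, so the level of all genes moved by more than 0.1 and the difference was -0.661. The split of member calls depended on the method: 37.3% of the calls were higher with edgeR, 46.7% with RLE scaling, 62.6% with DESeq2, 51.4% in 1 fit over all libraries and 49.1% with no filter, against 59%, 68.4%, 77.6%, 68.8% and 67.3% of the calls over all genes. The members' median was below that of all genes in each of these, with differences of -0.661 to -0.833. Without Moving replicates 1 to 4, the libraries with over 80% of genes detected, 1 Moving library remained, and it is assumed to vary like the 24-44 cell libraries, from which alone the spread was then estimated. In that fit the median log2 fold change was -1.41 for members and -1.43 over all genes tested, a difference of 0.0286. How far the number of genes detected bears on the direction was not tested.

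Both genes of a pair were lower in 21 of 759 head-to-head pairs (2.77%), where 1.49% of 4150 neighbour pairs of all orientations had both lower, with 1.75% in same-strand, 0.431% in tail-to-tail and 1.09% in longer head-to-head pairs. Both were higher in 7 pairs (0.922%, against 1.59% of all neighbour pairs). The split of these pairs turned with the method: both genes were higher in 98 and lower in 32 pairs with DESeq2, 57 and 53 in 1 fit over all libraries, 42 and 37 with no filter, and 10 and 14 with RLE scaling. With DESeq2 the share of head-to-head pairs with both lower was 2.77%, against 1.85% in same-strand, 0.456% in tail-to-tail and 0.923% in longer head-to-head pairs, and the share with both higher was 8.48%, against 10.3%, 9.89% and 10.7%. With edgeR the genes of a pair moved in opposite directions in 9 head-to-head pairs (1.19%, against 1.49% of all neighbour pairs). Where a member was lower, the partner was also lower for 42 of 233 genes (18%), while 15.3% of the genes in these pairs were lower. The partner was also lower for 16.9% of such genes in same-strand, 4.92% in tail-to-tail and 12.5% in longer head-to-head pairs. In these classes 10.3%, 8.77% and 8.7% of the genes were lower. Where a member was higher, the partner was also higher for 14 of 86 (16.3%), while 5.67% were higher. In the same 3 classes the partner was also higher for 20.7%, 13.9% and 9.43%, while 8.45%, 12.4% and 11.5% of the genes were higher. The ratio of the genes differed in 161 of 637 head-to-head pairs (25.3%), against 27.8% of 3401 neighbour pairs of all orientations. It differed in 22.7% of same-strand and 36.2% of tail-to-tail pairs.

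**Figure D5:**
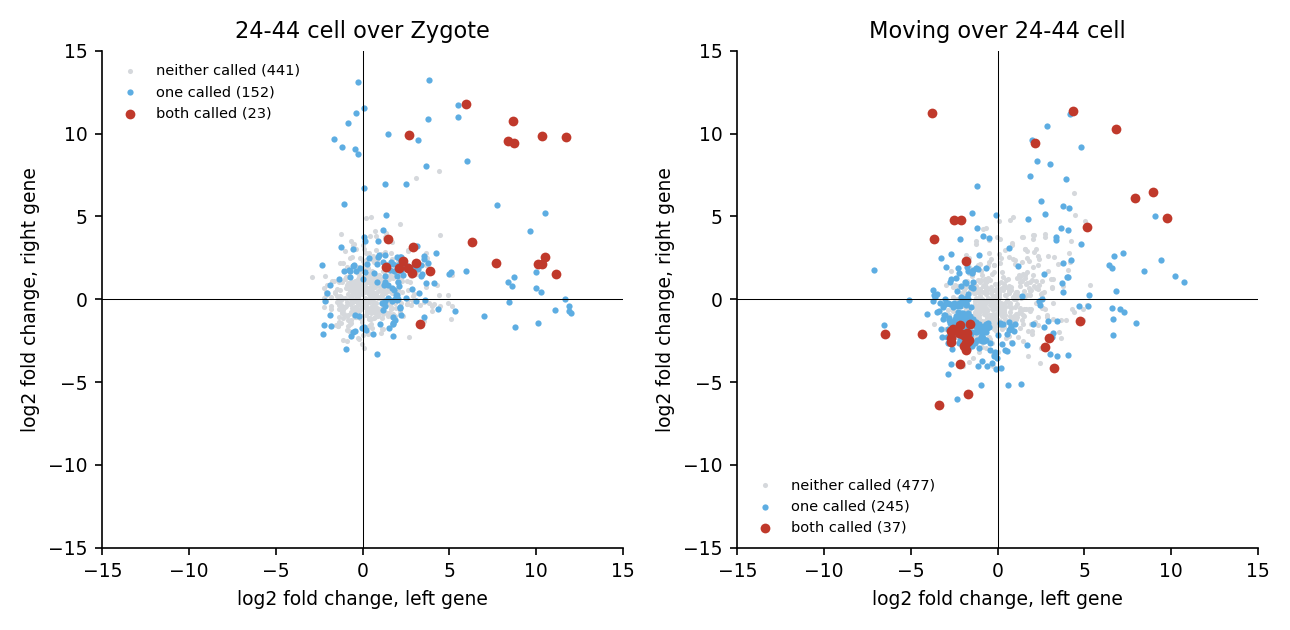
Log2 fold change (edgeR) of the left gene (x axis) and of the right gene (y axis) for every head-to-head pair with both genes tested, for 24-44 cell over Zygote (left panel, 616 pairs) and Moving over 24-44 cell (right panel, 759 pairs), coloured by whether neither, 1 or both genes passed the threshold. Pairs with both called lie in the upper right part except 1 on the left, and on the right 21 lie in the lower left part, 7 in the upper right and 9 in the others; values beyond about 8 come from genes at or near 0 counts at 1 stage and depend on the prior count.

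Among the pairs that were lower at Moving, Dd_10832 and Dd_10833 on chromosome 4 (3122379 to 3123817 and 3124428 to 3126376) ranked first by the smaller of their changes. Dd_10833 had 38.5, 40.6, 31.7, 51.9 and 18.8 CPM in Moving embryos, against 7781, 786, 1762, 3949 and 1641 CPM at 24-44 cell, with a log2 fold change of -6.40 (SE 0.77, adjusted p = 0.000359). Dd_10832 had 41, 34.6, 36.5, 12.9 and 0 CPM, against 324, 84.5, 162, 397 and 356 CPM, with a log2 fold change of -3.36 (SE 0.99, adjusted p = 0.0303). The stages did not overlap for either gene.

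In Dd_14751 and Dd_14752 on chromosome 4, 704 bp apart, the genes fell by nearly the same amount. Dd_14751 had 13.3, 20, 13.2, 13.6 and 15.3 CPM in Moving embryos, against 47.4, 86.7, 189, 71.7 and 93.1 CPM at 24-44 cell. Dd_14752 had 14.7, 22.2, 13, 15.5 and 23 CPM, against 103, 124, 131, 111 and 57.8 CPM. Their log2 fold changes were -2.66 (SE 0.60, adjusted p = 0.00815) and -2.56 (SE 0.54, adjusted p = 0.00616), and the ratio changed by -0.01 (SE 0.76, adjusted p = 0.993, limma). Dd_12240 and Dd_12241 on chromosome 4, 291 bp apart, had 107 ± 69 and 76.3 ± 32.6 CPM in Moving embryos, against 658 ± 401 and 395 ± 118 CPM at 24-44 cell (SD, n = 5 each). Their log2 fold changes were -2.66 (SE 0.56) and -2.33 (SE 0.47), with adjusted p of 0.00601 and 0.00524. No library overlapped between the stages in these 4 genes.

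Of the 22 pairs that were higher at 24-44 cell and the 21 that were lower at Moving, 2 were in both lists, 9.09% of the first and 9.52% of the second. The comparisons share the 24-44 cell libraries. The pairs are Dd_13891 with Dd_13892, described above, and Dd_09371 with Dd_09372 on chromosome 3, 273 bp apart, which is named after its values were seen. Dd_13891 had log2 fold changes of 3.87 over Zygote and -6.47 at Moving. Dd_09371 had 2.85 and -2.24, and Dd_09372 had 1.57 and -2.01, in the same comparisons.

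The pair that ranked first among rises of both genes at Moving was Dd_10898 and Dd_10899 on chromosome 4, 128 bp apart (3526578 to 3529852 and 3529980 to 3532032). Dd_10899 had 571, 222, 321, 741 and 305 CPM in Moving embryos, against 0.14, 1.01, 0, 0.539 and 0.14 CPM at 24-44 cell, with a log2 fold change of 10.28 (SE 1.01, adjusted p = 0.000135). Dd_10898 had 20.9, 12.7, 6.48, 5.5 and 62.4 CPM, against 0.845 CPM in 24-44 cell replicate 2 and 0 in the other 4, with 6.83 (SE 1.79, adjusted p = 0.0178). The stages did not overlap for either gene, and the right gene changed more: the log2 ratio changed by 4.43 (SE 1.03, adjusted p = 0.00552, limma).

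Dd_03095 and Dd_03096 on chromosome 1 are 32 bp apart (19430320 to 19432247 and 19432279 to 19435724). Dd_03095 had 355, 114, 23.5, 26.2 and 112 CPM in Moving embryos, against 0, 0.845, 0.126, 0.27 and 0 CPM at 24-44 cell, with a log2 fold change of 8.98 (SE 1.35, adjusted p = 0.00109). Dd_03096 had 247, 257, 38.4, 36.5 and 547 CPM, against 0.14, 4.9, 7.08, 0 and 0 CPM, with 6.48 (SE 1.51, adjusted p = 0.00986). Neither gene overlapped between stages. The ratio changed by -0.06 (SE 1.02, adjusted p = 0.97, limma).

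For Dd_12972 and Dd_12973 the high Moving values were in 2 embryos. Dd_12972 had 16.9, 79, 3868, 5286 and 0 CPM in Moving embryos, against 9.96, 11, 10.5, 9.71 and 0.702 CPM at 24-44 cell. Dd_12973 had 22.1, 3.34, 1677, 2567 and 0 CPM, against 13.7, 26.4, 5.19, 16.6 and 7.02 CPM. The log2 fold changes were 7.94 (SE 2.05, adjusted p = 0.0165) and 6.13 (SE 1.88, adjusted p = 0.0356), but the stages overlapped for both genes, and without Moving replicates 1 to 4 the changes were -8.79 and -9.50, against the 0 counts of Moving replicate 5. The same 2 embryos, Moving replicates 3 and 4, were high for both genes.

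Among the pairs with opposite changes were Dd_10809 and Dd_10810 on chromosome 4, 84 bp apart (2978646 to 2988999 and 2989083 to 2999908). Dd_10809 had 186, 94.8, 43.9, 60.9 and 92.7 CPM in Moving embryos, against 1707, 435, 1102, 1453 and 1371 CPM at 24-44 cell, with a log2 fold change of -3.64 (SE 0.56, adjusted p = 0.00114). Dd_10810 had 135, 125, 118, 59.8 and 215 CPM, against 3.51, 17.2, 1.52, 21.7 and 7.16 CPM, with 3.65 (SE 0.77, adjusted p = 0.00622). The genes thus moved by a like amount in opposite directions, no library overlapped between stages, and the log2 ratio changed by 7.57 (SE 0.84, adjusted p = 4.50e-05, limma).

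In Dd_03458 and Dd_03459 on chromosome 2, 756 bp apart, Dd_03459 had 10.7, 15.5, 33.8, 25.2 and 201 CPM in Moving embryos, against 0 in every 24-44 cell library, and was at least 534-fold higher (adjusted p = 0.00287). Dd_03458 had 28.7, 26, 1.68, 8.57 and 25.3 CPM, against 32.3, 614, 452, 91.8 and 95 CPM, with a log2 fold change of -3.79 (SE 0.93, adjusted p = 0.0128). Dd_03459, without a count at 24-44 cell, could only be called higher. Neither gene overlapped between the stages, although the highest Moving value of Dd_03458 came close to its lowest at 24-44 cell. In Dd_15073 and Dd_15074 on chromosome 4, 373 bp apart, Dd_15074 had 14.2, 12.5, 16.6, 44.8 and 0 CPM, against 647, 269, 182, 481 and 146 CPM, with a log2 fold change of -4.14 (SE 1.04, adjusted p = 0.0147). Dd_15073 had 1720, 1066, 193, 30.2 and 52.1 CPM, against 81.8, 44.4, 71.6, 62.7 and 67.5 CPM, with 3.28 (SE 0.96, adjusted p = 0.0297). The stages overlapped for Dd_15073 alone, whose Moving libraries lay on both sides of the 24-44 cell values.

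The largest changes of the ratio were in Dd_05776 with Dd_05777 on chromosome 2, 582 bp apart, and in Dd_10778 with Dd_10779 on chromosome 4, 386 bp apart. Dd_05776 had 7097, 5961, 3558, 5568 and 873 CPM in Moving embryos, against 46.1, 30.2, 49, 58.1 and 62.3 CPM at 24-44 cell, with a log2 fold change of 6.64 (SE 0.69, adjusted p = 0.000173). Dd_05777 had 19.6, 61.5, 10.3, 24.4 and 0 CPM, against 162, 65.9, 65.6, 98.8 and 147 CPM, with -2.13 (SE 1.02, adjusted p = 0.156), although no library overlapped between the stages. The log2 ratio changed by -9.23 (SE 0.65, adjusted p = 1.46e-06, limma). Dd_10778 did not pass the filter and had 469, 994, 178, 0 and 39.1 CPM, against 0 in every 24-44 cell library. Dd_10779 had 10.2, 5.1, 5.76, 0 and 0.294 CPM, against 55.5, 19.3, 7.84, 38.4 and 122 CPM, and their ratio changed by -9.59 (SE 1.33, adjusted p = 0.000184, limma). Since Dd_10778 was at 0 throughout 24-44 cell, the size of this change depends on the 1 CPM added to each value before the log. Both genes of this pair overlapped between stages.

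The number of pairs called depended on Moving replicate 5. Without it, 678 members were called, with 98 pairs of the same direction and 16 of opposite directions. Of 2012 members tested in that fit, 14.2% were higher and 19.5% lower, against 19.6% and 12.5% of 12440 genes tested. Both genes were higher in 4.61% of head-to-head pairs, against 4.84% of same-strand, 4.35% of tail-to-tail and 5.58% of longer head-to-head pairs. Both were lower in 6.69%, against 3.59%, 1.77% and 1.86% in the same classes. Pairs of the same direction numbered 56, 53, 43 and 50 without 24-44 cell replicates 2 to 5 and 17 and 18 without Moving replicates 2 and 3, and pairs of opposite directions 4, 4 and 5 without Moving replicates 1, 2 and 3. Among the genes named, the adjusted p passed 0.05 for Dd_10832 without Moving replicates 2, 3 and 4 (0.0567 to 0.0643), for Dd_12973 without 24-44 cell replicates 1, 3, 4 and 5 and Moving replicates 3 and 4 (0.0599 to 0.0773), and for Dd_15073 without any of the 24-44 cell replicates and without Moving replicates 1 and 2 (0.0516 to 0.0879). It fell below 0.05 for Dd_05777 without Moving replicate 5 (0.0399) and for Dd_10779 without 24-44 cell replicate 3 (0.0479).

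L1 against Moving sets the first larval stage against the moving embryo before it. None of the 1986 members tested passed the threshold with edgeR, where 0% of all 12250 genes tested did. This does not show that no gene changed. In data simulated for this comparison edgeR recovered 0 of 40 genes changed 4-fold and 14 of 40 changed 64-fold. At an unadjusted p under 0.05 there were 142 members (7.15%), against 7.44% of all genes tested. DESeq2 called 64 members, 9 higher (0.382%, against 0.468% of all genes tested) and 55 lower in L1 (2.33%, against 2.54%). A single fit over all libraries called 29 members, 13 higher (0.554%, against 0.328%) and 16 lower (0.682%, against 0.69%). The log2 ratio within a pair differed in 0 of 599 head-to-head pairs with limma (0% of 3251 neighbour pairs). At an unadjusted p under 0.05 there were 83 of the 599, against 446 of the 3251 neighbour pairs (13.7%). Without Moving replicates 1 to 4, which sets L1 against Moving replicate 5 alone, the median log2 fold change of members was 1.35. It was 2.05 over all genes tested. The ratio differed in 8 pairs without Moving replicate 5 and in 1 without Moving replicate 4.

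The same rule was applied to the tables of the 2 other plant-parasitic nematodes of the series. Members were 15.6% of the genes in D. destructor, against 17.3% in H. glycines (1573 pairs) and 18.4% in M. incognita (4176 pairs). The median r of stage means of head-to-head pairs was 0.394 in D. destructor, against 0.463 in H. glycines and 0.468 in M. incognita, where tail-to-tail pairs had 0.247 and 0.261. In all 3 species the head-to-head median was above that of tail-to-tail pairs, but only in D. destructor was it below that of same-strand pairs (0.403 in H. glycines and 0.406 in M. incognita). Differences between species were not tested.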

How the data were processed

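Single embryos of D. destructor were sequenced with Smart-seq2. Reads were trimmed by the authors with fastp, whose version in the submitters' processing notes is 0.20.1, then aligned with HISAT2 and assigned to genes with HTSeq. The deposited values are raw counts, 1 column for each library, beside the chromosome, start, end and strand of each gene. The strand setting of the counting and the build of this genome are not named in these sources. According to the methods, libraries kept for analysis were picked from a larger number of embryos of each stage.

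Members and lists of pairs were chosen with earlier results of these data known. These counts were scaled to CPM by library total, without molecular identifiers, so floors of 3 counts, taken over the libraries of a stage, cover counting error only. Stages were compared with edgeR (version 4.0.16; TMM, filterByExpr, quasi-likelihood test), fitted only to libraries of the stages compared, in R (version 4.3.3), and within-pair log2 ratios, with a pseudocount of 1 CPM, with limma (version 3.58.1), over all neighbour pairs within 1000 bp. All p-values are 2-sided and adjusted by Benjamini-Hochberg, with a threshold of 0.05. Correlations used pairs with both genes at a stage mean of at least 10 CPM. The scripts were tested on simulated data, where edgeR recovered 0 of 40 genes changed 2-fold in each comparison. Of genes changed 64-fold it recovered 72.5% at 24-44 cell against Zygote, 65% at Moving and 35% at L1. For limma the shares at 64-fold were 62.5%, 37.5% and 50%. Since embryos of a stage are not stated to come from separate cultures, p-values measure only the spread between these embryos. Moving replicates 1 and 2 of H. glycines, nearly identical, were counted as 1 library.

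Named for each comparison were the 3 pairs with both genes called higher, the 3 lower and the 3 opposite with the largest smaller change, and the 2 with the largest change of ratio. Over all stages the 3 pairs with the highest and lowest r, the highest r of deviations and the most abundant weaker gene were named, with the pairs at the limits of distance. Alternatives were DESeq2 (version 1.42.0), RLE scaling, no filter, thinning to the smallest total, 1 fit over all libraries, the replicate number as a block, other pseudocounts, limits of 500 and 2000 bp, a 2-fold minimum, and the omission of each library. The omission of libraries with over 80% of genes detected, the pairs without overlaps and other limits of detection were chosen after seeing the data.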

Additional observations from a re-analysis of the deposited data

Results flagged for a closer look

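Of 79 groups of 4 or 5 libraries checked with Dixon's ratio, 7 held a library far from the others, and chance flags about 1 in 20 groups. The number of members detected was 1407 in Moving replicate 5, with 2053 as the next lowest. CPM of Dd_12972 in 24-44 cell replicate 5 was 0.702, with 9.71 next. CPM of Dd_07657 in Zygote replicate 1 was 20, against 0 in the others. Dd_10898 was high in Moving replicate 5 at 62.4 CPM, with 20.9 next, and in 24-44 cell replicate 2 at 0.845 CPM, against 0 in the others. Dd_03095 reached 355 CPM in Moving replicate 1, with 114 next, and Dd_03459 reached 201 CPM in Moving replicate 5, with 33.8 next.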

How the results depend on the processing

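In the comparisons given in the order 24-44 cell against Zygote, Moving against 24-44 cell and L1 against Moving, DESeq2 called 484, 803 and 64 members, with 58, 130 and 4 pairs of the same direction and 6 and 23 of opposite directions in the first pair of comparisons. A single fit over all libraries called 407, 745 and 29 members, with 51, 110 and 1 pairs of the same direction and 3 and 16 opposite. No filter gave 642 members, 79 pairs of the same direction and 17 opposite at Moving. RLE scaling and thinning each gave 2 opposite pairs at 24-44 cell. The limit of 500 bp gave 158 and 222 members, 17 pairs of the same direction and 4 opposite at Moving, and 54, 87 and 5 pairs with a changed ratio, and 2000 bp gave 3 and 17 opposite pairs, 619 members and 273 changed ratios at Moving. At L1, pseudocounts of 0.1 and 10 CPM gave 1 and 5 changed ratios. Replicate numbers did not pair the embryos: correlations of same-numbered deviations were at most 0.0341. With the replicate block, 24-44 cell against Zygote had 66 members called, 0 pairs of the same direction, 0 opposite and 40 changed ratios, and Moving against 24-44 cell had 2 opposite pairs.

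Leaving out 1 library gave, at 24-44 cell, 6 to 20 pairs of the same direction, 0 to 1 opposite, 132 to 207 members and 55 to 82 changed ratios, and at Moving 17 to 98 pairs of the same direction, 4 to 16 opposite, 283 to 678 members and 117 to 201 changed ratios. At L1 it gave 0 to 8 changed ratios. Without libraries with over 80% of genes detected there were 43 pairs of the same direction at Moving and 57 members and 38 changed ratios at L1, and the log2 fold changes at Moving were -8.79 for Dd_12972, -9.50 for Dd_12973 and -0.63 for Dd_15073. Dd_11909 at 24-44 cell had -0.66 without Zygote replicate 4 and 0.06 without Zygote replicate 1. No library of these stages had under 1000000 counts or over 90% of genes detected, so these planned omissions changed nothing.

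The median r of stage means was 0.285 for CPM without a log and 0.338 without libraries over 80%, and the median r of deviations was 0.0871 without a log, 0.0857 thinned and 0.0999 without libraries over 80%, with 0.0979 to 0.127 when a replicate number was left out. At 10 CPM, 876 members were detected at every stage. Of 525 alternatives for the log2 fold changes of named genes, 462 kept their direction and side of the threshold. The causes of these differences were not tested.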
